A study of Mus musculus with 24 samples.

Results

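During blood formation, regulatory DNA that is accessible in stem cells can remain so in one progenitor and close in the next. The regions described here are distal ATAC-seq peaks of long-term haematopoietic stem cells (LT-HSCs) that were also listed in common myeloid progenitors (CMPs) and were absent from granulocyte-monocyte progenitors (GMPs). They were chosen on the Daxx-WT lists of intervals that the study deposited. An LT-HSC interval was taken if it lay over 1000 bp from every GENCODE transcript start, overlapped a CMP interval by at least 1 bp and overlapped no GMP interval. Of 65455 LT-HSC intervals, 44529 were distal, and 6276 of these (14.1%) met the rule. They are called GMP-closed peaks below, a name for their absence from 1 list. Of the other distal LT-HSC peaks, 22964 (51.6%) were in both progenitor lists and are called kept peaks, 13562 (30.5%) were in the LT-HSC list alone, and 1727 (3.88%) were in LT-HSCs and GMPs but not CMPs.

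ATAC-seq cuts accessible DNA with a transposase, and reads pile up where nucleosomes are displaced, mostly at promoters and enhancers. LT-HSCs give rise to all blood lineages. The CMP gate holds cells with granulocyte-monocyte as well as megakaryocyte-erythroid potential, and GMPs have lost most of the latter. GATA factors act in stem, megakaryocyte-erythroid and mast cells, whereas Pu.1 and C/EBP factors drive granulocyte and monocyte genes. Daxx is a chaperone that deposits the histone variant H3.3.

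The study asked how loss of Daxx changes chromatin in mouse blood progenitors, with 24 libraries in 11 groups and 1 list of peaks per group. The 6 groups without a time label were LT-HSCs, CMPs and GMPs of Rosa26-CreERT2 mice, 3 weeks after tamoxifen by gavage, with 2 libraries each. They were Daxx +/+ (Daxx-WT) or Daxx F/F (Daxx-KO), and all carried 1 CreERT2 allele, which acts in all tissues. The LT-HSC gate was lineage-negative, CD45.2+, c-Kit+, Sca-1+, CD48- and CD150+. CMPs were sorted as CD34+ and CD16/32- cells of the c-Kit+ Sca-1- fraction, without lineage markers and with CD45.2, and GMPs were CD16/32+. LT-HSCs sorted at 3 days after tamoxifen (3 d.p.i.) gave 3 Daxx-KO (Daxx F/F) and 2 Daxx-WT (Daxx +/+ by the labels) libraries, and the methods give CreERT2 mice injected with tamoxifen. For these Daxx-WT libraries a legend of the study names Daxx +/F as well as Daxx +/+. The c-Kit+, lineage-negative, Sca-1+ (KLS) cells at 3 weeks (3 w.p.i.) gave 3 Daxx-KO libraries, 2 Daxx-WT libraries and 2 libraries of the Daxx F/F Pu.1 F/F double knockout (DKO). The study's methods describe the KLS mice as Mx1Cre crosses treated with pI:pC. By the labels, the mice of all 24 libraries were Cre +/-, with no driver named, and of the C57BL/6 strain.

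The 3 lists used by the rule were alike in length, with 65306 to 66070 intervals, whereas the other 8 held 22156 to 70455. Median widths were 889 bp in the Daxx-WT LT-HSC list, 651 bp in CMPs and 607 bp in GMPs. The CMP and GMP libraries were also sequenced as single reads and the LT-HSC libraries only as pairs, and the part of this difference in the absence from GMPs was not tested. Promoter peaks were checked at marker genes. Of 6 stem cell markers, 6 had one in Daxx-WT LT-HSCs, 5 in CMPs and 4 in GMPs, and of 6 myeloid markers, 3, 5 and 6 had one. For 5 T or NK cell markers the counts were 1, 2 and 0, for 4 B cell markers 3, 3 and 2, and for 3 stromal markers 3, 2 and 1. The counts were 3 of 4 erythroid and 3 of 3 endothelial markers in each of the 3 lists. An open promoter need not be an active one, and the part of other cell types in the peaks was not tested. In bulk samples, fewer cells of a type and less accessible DNA per cell cannot be told apart.

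The DNA under 6 GMP-closed peaks is shown to put letters to the regions. They are the strongest in Daxx-WT KLS cells, by fold enrichment of the peak over background, among those of genes with a known role in blood lineages that were also in the Daxx-WT LT-HSC list at 3 d.p.i. and in the Daxx-KO LT-HSC and CMP lists and absent from Daxx-KO GMPs, with at most 1 per gene. Each run spans 100 bases to either side of the summit of the KLS peak, on the plus strand of GRCm38. Capitals mark a motif searched below on either strand, with AGATAA or TGATAA for GATA factors, ACAGGAAG for ETS factors, CAGCTG for an E-box and TGATTNAT for HOX/MEIS.
Kit chr5:75762050-75762250: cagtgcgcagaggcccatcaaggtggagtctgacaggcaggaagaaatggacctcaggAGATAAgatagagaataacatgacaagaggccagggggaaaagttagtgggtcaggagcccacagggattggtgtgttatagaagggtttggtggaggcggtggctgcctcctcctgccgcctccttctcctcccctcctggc
Thbs1 chr2:118066531-118066731: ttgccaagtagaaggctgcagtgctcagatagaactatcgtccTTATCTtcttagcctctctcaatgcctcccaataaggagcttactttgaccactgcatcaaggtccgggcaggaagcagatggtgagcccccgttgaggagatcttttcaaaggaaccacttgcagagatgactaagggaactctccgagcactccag
Prdm16 chr4:154497096-154497296: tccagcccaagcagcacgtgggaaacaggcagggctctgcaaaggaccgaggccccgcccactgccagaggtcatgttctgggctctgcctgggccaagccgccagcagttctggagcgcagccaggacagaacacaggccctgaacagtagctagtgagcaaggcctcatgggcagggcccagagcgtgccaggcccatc
Tcf7 chr11:52318589-52318789: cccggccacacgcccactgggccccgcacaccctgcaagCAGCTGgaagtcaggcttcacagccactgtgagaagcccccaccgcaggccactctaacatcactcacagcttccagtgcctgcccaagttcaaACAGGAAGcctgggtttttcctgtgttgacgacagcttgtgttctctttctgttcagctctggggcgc
Bcl11a chr11:24226861-24227061: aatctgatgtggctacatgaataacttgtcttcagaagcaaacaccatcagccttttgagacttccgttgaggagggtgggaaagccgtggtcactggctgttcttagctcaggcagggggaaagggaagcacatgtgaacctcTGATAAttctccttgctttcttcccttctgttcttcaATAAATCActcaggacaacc
Id2 chr12:25254872-25255072: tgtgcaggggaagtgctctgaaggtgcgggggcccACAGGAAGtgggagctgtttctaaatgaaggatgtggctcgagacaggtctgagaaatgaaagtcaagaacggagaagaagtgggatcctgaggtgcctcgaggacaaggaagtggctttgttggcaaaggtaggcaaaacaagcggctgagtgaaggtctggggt
The Kit peak (chr5:75761529-75762753) lay between genes, 112336 bp from the nearest Kit transcript start, and its window held 1 GATA motif. Kit encodes the receptor for stem cell factor. Its fold enrichment was 8.20 in Daxx-WT KLS cells, 7.39 in Daxx-KO KLS cells, 9.10 in Daxx-WT and 10.8 in Daxx-KO LT-HSCs at 3 d.p.i., and it was absent from the DKO list. The Thbs1 peak (chr2:118066070-118067053) lay in an intron of Gm13986, 44823 bp from a start of Thbs1, which encodes the platelet and matrix protein thrombospondin-1. Its window also held a GATA motif. The Prdm16 peak (chr4:154496822-154497817) was intronic in Prdm16 and had none of the motifs searched in its window. The Tcf7 peak (chr11:52318103-52319117) held an ETS motif and an E-box and lay between genes, 35089 bp from a start of Tcf7, a T-lineage factor. The Bcl11a peak (chr11:24226310-24227580), 83931 bp from a start, held a GATA and a HOX/MEIS motif. The Id2 peak (chr12:25254622-25255291) held an ETS motif and lay 157482 bp from a start. The peaks near Thbs1, Prdm16, Tcf7 and Id2 were also in the DKO list, at folds of 3.86, 4.05, 5.05 and 4.13.

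GMP-closed peaks ranged from 200 to 3420 bp with a median of 801 bp, between the medians of kept peaks (847 bp) and of LT-HSC-alone peaks (697 bp). By their centre, 51.7% lay in introns, 43.9% between genes and 4.40% in exons. Their median distance to a transcript start was 11948.5 bp, against 9394 bp for kept peaks, and 680 (10.8%) were more than 50 kb away, against 6.01% of kept peaks. The farthest was 483088 bp from a start. Their median GC content was 47.1%, against 48.4% for kept peaks. Between 12.7% (chromosome 11) and 15.9% (chromosome 4) of the distal LT-HSC peaks of a chromosome were GMP-closed, apart from chromosome Y with 0 of 26. Only 722 (11.5%) lay within 10 kb of another GMP-closed peak, where 41.1% of the more numerous kept peaks lay that close to another kept peak. A kept peak was within 10 kb of 1975 GMP-closed peaks (31.5%).

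These peaks were defined by overlap with lists, so some lay close to a limit of the rule. The nearest GMP peak was at a median distance of 8629 bp. It lay within 500 bp of 221 GMP-closed peaks (3.52%) and within 100 bp of 23, and the shortest gap was 9 bp. Just above the distance limit of 1000 bp lay 47 peaks within 100 bp of it, and 50 otherwise alike lay as close below it. In all, 1496 intervals met the other conditions but lay at or under that limit. The overlap with CMP peaks had a median of 503 bp, was under 100 bp in 6 cases and was 4 bp at the smallest. The CMP peaks they overlapped were narrower than those at kept peaks, with medians of 518 and 654 bp.

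GATA motifs were more frequent in GMP-closed peaks than in the other classes. AGATAA or TGATAA occurred within 100 bp of the centre in 24.6% of them (95% Wilson interval 23.6 to 25.7%), in 15.2% of kept peaks (14.7 to 15.7%) and in 21.2% of LT-HSC-alone peaks (20.6 to 21.9%). The shares were 18.4% of all distal LT-HSC peaks and 14.0% of all distal GMP peaks. The intervals cover counting error over peaks only. The Pu.1 motif GAGGAAGT was less frequent in them, in 4.62% of GMP-closed (4.13 to 5.17%), 6.84% of kept (6.52 to 7.17%) and 9.61% of distal GMP peaks. It was in 4.71% of LT-HSC-alone peaks and 5.84% of all distal LT-HSC peaks. The C/EBP motif TTGCNNAA was in 7.89% of GMP-closed, 9.02% of kept and 14.5% of distal GMP peaks. RUNX motifs (TGTGGTT) were in 10.5% of GMP-closed, 8.86% of kept and 9.39% of distal GMP peaks. Over the whole interval the RUNX share was not higher in GMP-closed peaks, at 25.8% against 26.2% of kept peaks. The HOX/MEIS motif was in 2.72% of GMP-closed peaks, above kept peaks (1.96%) and below LT-HSC-alone peaks (3.64%). The ETS motif (5.99 and 6.06%), the E-box (13.7 and 14.2%), the MYB motif AACGGC (2.29 and 2.49%) and TTACNTAA of HLF and NFIL3 (1.59 and 1.93%) had overlapping intervals in GMP-closed and kept peaks. The AP-1 motif TGANTCA was in 7.33 and 8.10%, also with overlapping intervals. Letters were searched on both strands, and a HOX/MEIS match with C at its open position also holds the AP-1 letters. A match is a description of the letters and not of binding.

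**Figure D1:**
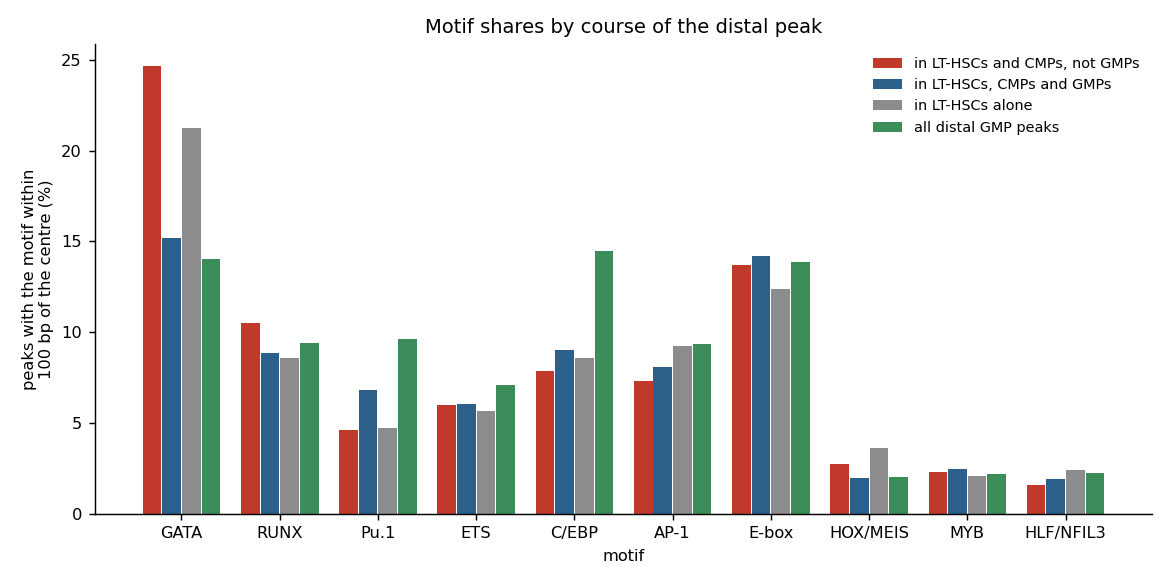
Share of peaks (%, vertical axis) with each of 10 motifs within 100 bp of the centre, for the 3 classes of distal Daxx-WT LT-HSC peaks and for all distal Daxx-WT GMP peaks. GATA is at 24.6% in GMP-closed peaks and 14.0% in GMP peaks, and C/EBP at 7.89% and 14.5%.

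In the 8 lists that the rule did not use, GMP-closed peaks were present in a median of 3, kept peaks in 6 and LT-HSC-alone peaks in 1. They were in 0 of the 8 in 184 cases and in all 8 in 40 cases. As each group has 1 list, these shares have no replicate error and were not tested. Of the GMP-closed peaks, 5881 (93.7%) were in the Daxx-KO LT-HSC list, close to 96.6% of kept and above 81.5% of LT-HSC-alone peaks. The Daxx-KO CMP list held 3079 (49.1%), below 84.9% of kept peaks and near 53.6% of all distal LT-HSC peaks. The Daxx-KO CMP list is shorter than that of Daxx-WT, at 50590 intervals against 66070. In the Daxx-KO GMP list, of 49677 intervals, 732 (11.7%) were present, against 80.2% of kept, 0.818% of LT-HSC-alone and 44.3% of all distal LT-HSC peaks.

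The 5 timed lists were shorter than the others and held fewer of the distal peaks of each class than the Daxx-KO LT-HSC list. At 3 d.p.i., 2549 (40.6%) were in the Daxx-WT LT-HSC list of 36949 intervals and 3565 (56.8%) in the Daxx-KO list of 44326. In KLS cells the counts were 1930 (30.8%) in Daxx-WT, 3193 (50.9%) in Daxx-KO and 333 (5.31%) in DKO, from lists of 33325, 44694 and 22156 intervals. Kept peaks were more often present in each, at 63.7, 76.0, 58.5, 76.4 and 26.0%. Over all distal LT-HSC peaks the shares were 44.0, 54.7, 38.7, 54.6 and 14.9%. Among the 5 timed lists, the GMP-closed share exceeded this average only in Daxx-KO LT-HSCs (56.8 against 54.7%). It fell furthest short of the average in the Daxx-WT KLS list (30.8 against 38.7%) and the DKO list (5.31 against 14.9%). When each of these 5 lists was shortened to its 22156 strongest peaks, the excess of Daxx-KO over Daxx-WT was small. GMP-closed peaks were then at 16.3% and 18.9% at 3 d.p.i., and at 17.3% in Daxx-WT, 18.7% in Daxx-KO and 5.31% in DKO KLS cells.

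**Figure D2:**
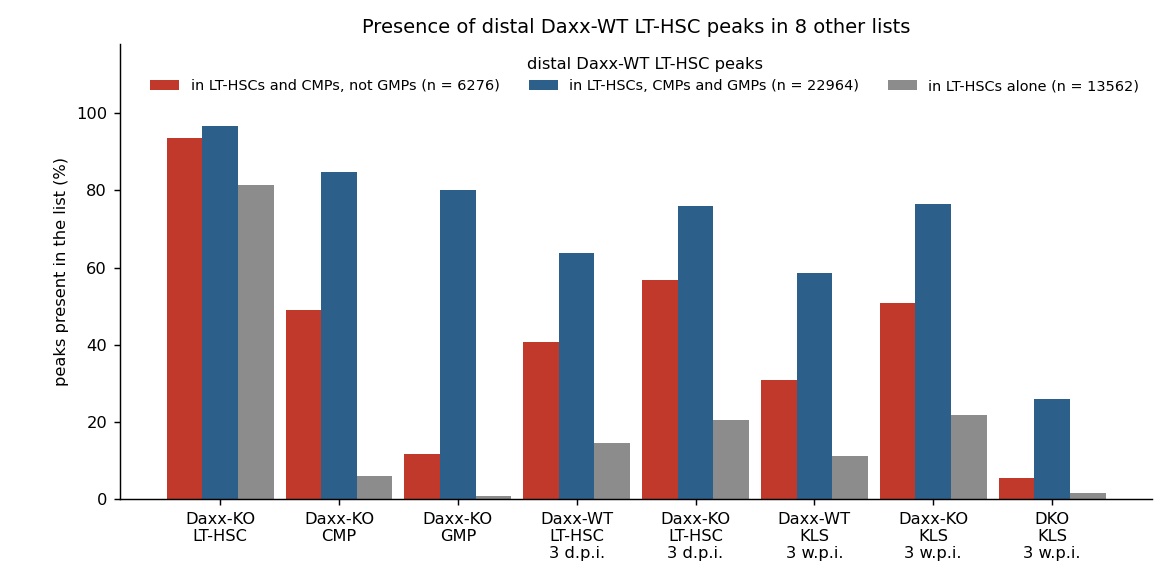
Share (%, vertical axis) of GMP-closed, kept and LT-HSC-alone distal Daxx-WT LT-HSC peaks that overlap an interval in each of the 8 lists not used by the rule. GMP-closed peaks fall from 93.7% in Daxx-KO LT-HSCs to 49.1% in Daxx-KO CMPs and 11.7% in Daxx-KO GMPs, and are at 5.31% in DKO KLS cells.

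Followed through the 3 Daxx-KO lists, 2445 GMP-closed peaks (39.0%) had the same course as in Daxx-WT, in LT-HSCs and CMPs and not in GMPs. Of all distal LT-HSC peaks 13.8% had that course, and of kept peaks 11.8%. A larger number of GMP-closed peaks, 2733 (43.5%), were in Daxx-KO LT-HSCs alone, and 516 (8.22%) were in all 3. Over all distal LT-HSC peaks these shares were 34.6% and 38.2%. None of the 3 lists held 261 of the GMP-closed peaks. Of the 3079 in the Daxx-KO CMP list, 529 (17.2%) were also in the Daxx-KO GMP list, against 73.2% for all distal and 85.6% for kept peaks. The same rule applied to the Daxx-KO lists gave 6713 peaks of 48583 distal ones (13.8%). These overlapped 2436 of the GMP-closed peaks (38.8%), and 3179 of the 6713 (47.4%) were present in the Daxx-WT GMP list. The 732 GMP-closed peaks in the Daxx-KO GMP list had GATA motifs in 18.2%, against 25.5% of the remaining 5544. The 333 in the DKO list had the Pu.1 motif in 1.80%, which is few peaks. The share was 4.63% in the 1685 that were in the Daxx-WT KLS list and not in the DKO list. The 333 also lay nearer to GMP peaks than the 1685, with median distances of 4801 and 9320 bp. GATA shares were 22.4, 23.8 and 27.5% for peaks in 0 or 1, 2 to 4 and 5 to 8 of the 8 lists, and median widths were 566, 754 and 1013 bp. In the same order, Pu.1 shares were 6.38, 4.42 and 3.90%, so they also fell with presence in more lists. The cause of the lower Pu.1 share in the DKO list was not tested.

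Where present, most GMP-closed peaks ranked below the middle of their list. Their median fold enrichment was 5.13 in Daxx-WT and 5.49 in Daxx-KO LT-HSCs at 3 d.p.i., and 5.07, 5.69 and 3.73 in Daxx-WT, Daxx-KO and DKO KLS cells. In the same order, the median peak ranked at percentiles of 33.3, 38.1, 37.4, 40.1 and 20.6 of its list. Kept peaks had medians of 5.88, 6.33, 5.40, 6.35 and 4.33 and ranked at percentiles of 45.2, 49.7, 44.6, 51.2 and 36.8. The highest GMP-closed peak reached 34.6 in Daxx-KO KLS cells. These heights come from pooled libraries, and the lists without a time label give none.

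Each distal peak was assigned to the protein-coding gene with the nearest transcript start, which need not be the gene it acts on. GMP-closed peaks fell to 4244 of the 12446 genes with a distal LT-HSC peak. Of these, 2986 had 1, 800 had 2, 458 had 3 or more and 72 had 5 or more. Most of the genes did not close as a whole, since 3150 (74.2%) also had a kept peak. The promoters of 3098 (73.0%) were open in all 3 Daxx-WT lists, against 70.7% of all genes with a distal peak. Those of 202 (4.76%) were open in LT-HSCs and CMPs and not in GMPs, against 3.94%.

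Genes of 5 lineage lists carried 158 of the peaks, of which 13 were in the Daxx-KO GMP list. That list held 11.7% of all GMP-closed peaks. The share of distal LT-HSC peaks that were GMP-closed was 14.1% over all genes. It was 18.5% for stem cell genes (70 of 379 peaks, at 24 of 40 genes), 18.6% for megakaryocyte and erythroid genes (48 of 258, at 23 of 36 genes) and 15.9% for mast cell, basophil and eosinophil genes (10 of 63, at 6 of 15 genes). It was 11.9% for lymphoid genes (35 of 293, at 19 of 33 genes) and 10.6% for granulocyte and monocyte genes (15 of 141, at 8 of 32 genes). Kept peaks made up 35.1% of the distal peaks of stem cell genes, 47.3% of megakaryocyte and erythroid, 52.4% of mast cell, 50.2% of lymphoid and 59.6% of granulocyte and monocyte genes, against 51.6% over all genes. The Daxx-KO GMP list held 5.71% of the GMP-closed peaks of stem cell genes and 4.17% of those of megakaryocyte and erythroid genes. It held 4 of 35 for lymphoid (11.4%), 1 of 15 for granulocyte and monocyte (6.67%) and 3 of 10 for mast cell genes (30%). The lists share genes, such as Kit and Bcl11a.

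Among stem cell genes, Prdm16 had the most GMP-closed peaks. It encodes a zinc finger regulator needed for stem cell maintenance. Of its 19 distal peaks, 9 were GMP-closed, 9 were in LT-HSCs alone and 1 was kept. All 9 GMP-closed peaks lay in Prdm16 introns, between chr4:154376081 and chr4:154543136, and none was in the Daxx-KO GMP list (11.7% over all genes). One of them, chr4:154530881-154531955, lay 23 bp from a GMP peak, and the other 8 were 6602 to 35798 bp from one. Of the 9, 8 were in Daxx-KO LT-HSCs, 5 in Daxx-KO CMPs, 6 in both lists at 3 d.p.i., 5 in Daxx-WT KLS cells, 8 in Daxx-KO KLS cells and 1 in DKO cells. The Prdm16 promoter was open in all 3 Daxx-WT lists and was absent from the Daxx-KO GMP and DKO lists.

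Runx1, a core factor of blood formation, had 7 GMP-closed peaks of 23, but 9 of its distal peaks were kept. Of these 7, 2 adjacent intervals (chr16:92926729-92928065 and chr16:92928178-92928534) overlapped the same peak in each of the 4 timed Daxx-WT and Daxx-KO lists and are not separate there. The Runx1 peak chr16:92868384-92869310 lay 407 bp from a GMP peak, and chr16:92644477-92645608 was present in the Daxx-KO GMP list. Mecom, whose product Evi1 sustains stem cells, had 5 of 35, with 6 kept and 22 in LT-HSCs alone. Mycn had 5 of 13 and Tcf15, a marker of quiescent stem cells, 3 of 4, and neither had a kept peak. Slamf1, which encodes the CD150 used in the LT-HSC gate, had 2 of 3. Its promoter, with those of Nkx2-3 and the angiopoietin receptor gene Tek, was open in Daxx-WT LT-HSCs and CMPs and not in GMPs. The 70 peaks of stem cell genes were in the Daxx-KO LT-HSC, CMP and GMP lists in 63 (90%), 29 (41.4%) and 4 (5.71%) cases. Over all GMP-closed peaks the shares were 93.7, 49.1 and 11.7%.

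**Figure D3:**
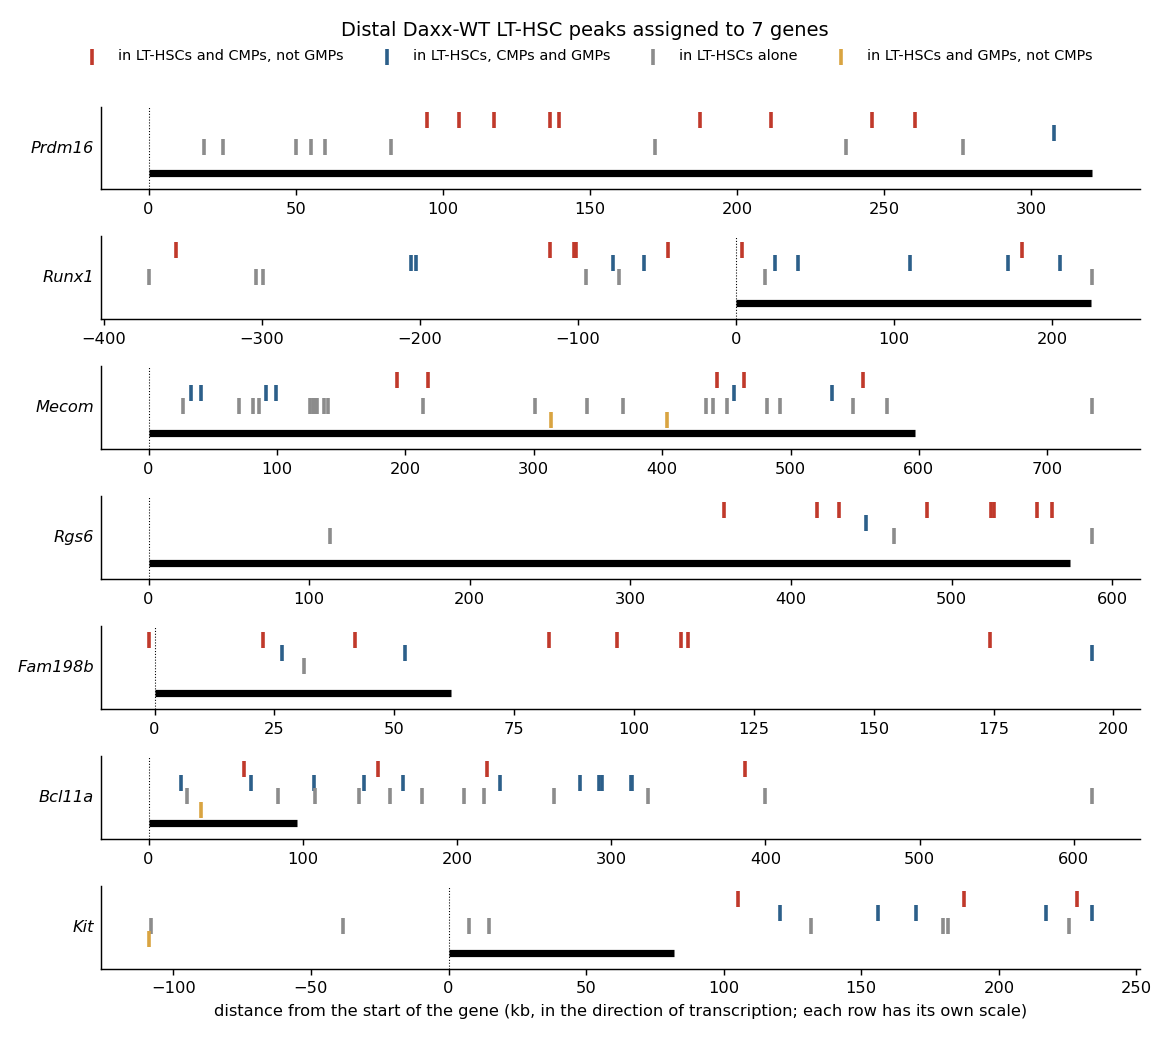
Distal Daxx-WT LT-HSC peaks (ticks) assigned to 7 genes, by distance from the gene's start in kb along the direction of transcription, with the gene as a black bar. Each row has its own scale, and ticks are separated by course. Prdm16 and Rgs6 have 1 kept peak each beside 9 and 8 GMP-closed ones, and Runx1 and Bcl11a have 9 and 11 kept peaks.

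Among megakaryocyte and erythroid genes, Car2, which encodes carbonic anhydrase 2 of red cells, had 4 GMP-closed peaks of 9, with 1 kept. Mef2c, a factor in megakaryocyte and lymphoid development, had 4 of 21 and 11 kept peaks. Zfpm1, which encodes the GATA partner FOG-1, had 4 of 23. The single distal peaks of Gata1, the main erythroid GATA factor, and of Cavin2 were both GMP-closed. The Gata1 promoter took another course, absent from the Daxx-WT LT-HSC list and open in CMPs and GMPs. The promoters of Aqp1, Cavin2 and the platelet receptor gene Gp1ba were open in Daxx-WT LT-HSCs and CMPs and not in GMPs. Of the 48 peaks of this list, 41 (85.4%), 21 (43.8%) and 2 (4.17%) were in the Daxx-KO LT-HSC, CMP and GMP lists. Over all GMP-closed peaks the shares were 93.7, 49.1 and 11.7%. None of the distal peaks of Gata2 and Tal1, 3 and 5 in number, was GMP-closed.

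Among lymphoid genes, Bcl11a, a factor in B cells and in globin switching, had 4 of 28 and Tcf4, an E protein, 4 of 23. Bach2 and Foxo1, both needed in B cell development, had 3 of 28 and 3 of 18. The single GMP-closed peak of Il2ra, which encodes an interleukin 2 receptor subunit, was in all 8 of the other lists. It was the only 1 of the 158 with that course, beside 0.637% of all GMP-closed peaks. Granulocyte and monocyte genes had few. Zeb2, a repressor with a role in myeloid fates, had 4 of 20, Klf4 3 of 16, Irf8 2 of 14 and Ly86 2 of 14. Spi1, which encodes Pu.1, had 1 of 3. Cebpa, Cebpb, Cebpd and Cebpe had 0 of 4, 4, 3 and 3. The 3 Klf4 peaks lay more than 500 kb from Klf4, at 537816 to 585853 bp from its start. Of the mast cell list, Kit and Mitf, both needed for mast cells, had 3 of 17 and 3 of 12, and 2 of the 3 at Mitf were in the Daxx-KO GMP list. Csf2rb, a cytokine receptor subunit, and Hdc, which makes histamine, had 1 of 4 and 1 of 5.

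Genes outside these lists had as many. Pde4d, a cAMP phosphodiesterase, had 10 GMP-closed peaks, but among 58 distal ones with 36 kept. Adgrl2 (an adhesion receptor) had 9 of 49, Arid1b (a subunit of BAF remodelling complexes) 9 of 33, Pard3 (a polarity protein) 8 of 21, Rora (a nuclear receptor) 8 of 36, Bcl2l11 (the death protein Bim) 7 of 23, Elmo1 (a Rac activator) 7 of 33 and Gpc5 (a glypican) 7 of 16. By share, Rgs6 and Fam198b stood out among genes with many. Rgs6, a regulator of G protein signalling, had 8 of 12, all in its introns and with 1 kept peak. Fam198b had 8 of 12 with 3 kept. All 16 were in Daxx-KO LT-HSCs and 0 in Daxx-KO GMPs, beside 93.7% and 11.7% of all GMP-closed peaks. Sec23a, a coat protein of the secretory pathway, had 4 of 4. Atp5g3, Lrrc8b, Me3, Sap30l and Sftpb had 4 of 5 each, and Alk and Atp6v1g3 3 of 4. These shares were used to choose the genes and are a description.

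**Figure D4:**
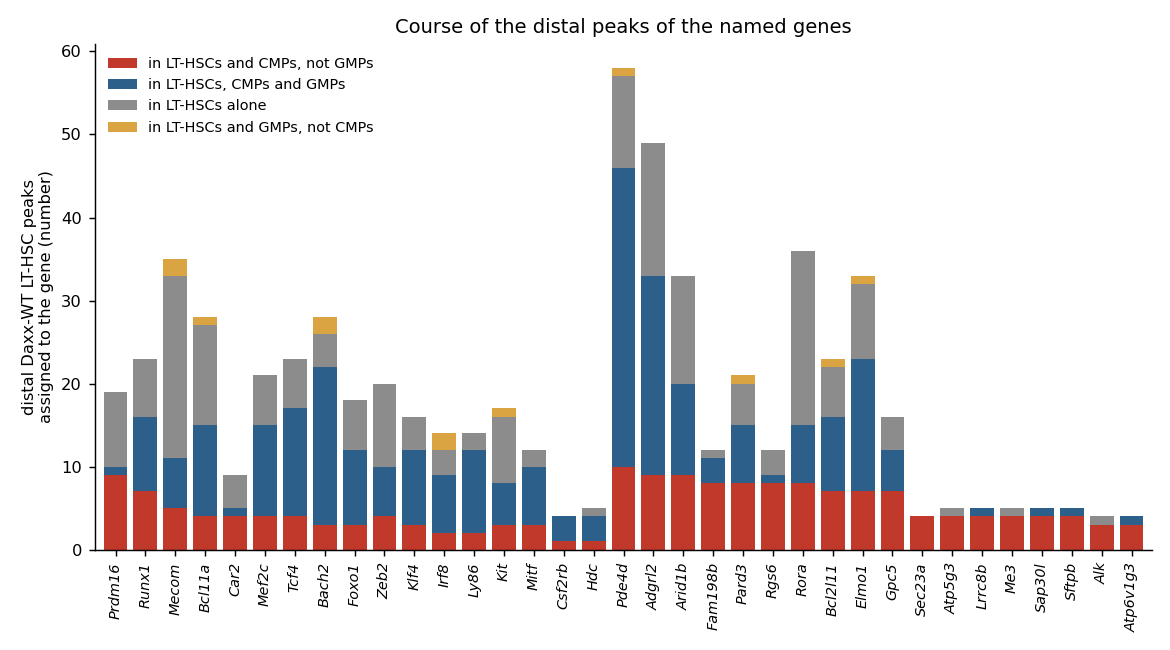
Number of distal Daxx-WT LT-HSC peaks (vertical axis) of each named gene, divided by course. Genes are ordered by list, followed by those with the most GMP-closed peaks and those with the largest share. Pde4d has 10 of 58 and Sec23a 4 of 4.

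The study also deposited sites at which read numbers per library differed between groups, at a window p below 0.0001 in its own test. These contrasts were not used to choose the peaks. The sites were selected on the same libraries, so a test on them is no independent evidence of a difference, and a peak without a site is not shown to be unchanged. Values are reads per site divided by a constant per library (scaled reads). They were compared with limma on log2 scaled reads plus 1, adjusted over all windows tested, and the log2 differences are on that scale.

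In LT-HSCs at 3 d.p.i., 510 of 11927 sites overlapped 507 GMP-closed peaks (8.08%). Of these, 391 (76.7%) were higher in Daxx-KO and 119 lower, with a median log2 difference of 0.76, whereas 29.1% of all sites were higher. At kept peaks 63.8% of 1280 sites were higher, and at LT-HSC-alone peaks 25.1% of 684. With limma, 0 of the 510 passed an adjusted p of 0.05 (background 0%), and at an unadjusted p under 0.05 there were 362 higher and 115 lower, with backgrounds of 25.9% and 70.2% of all sites. The site near Cited2, a stem cell regulator, lay in an intron of Gm47729 (chr10:16600451-16601800). It had 206, 130 and 151 scaled reads in the Daxx-KO libraries and 45.1 and 51.6 in Daxx-WT, a log2 difference of 1.70 ± 0.27 (SE, adjusted p = 0.30). The groups did not overlap, which held for 99.5% of all sites of this comparison. At Runx1, the site chr16:92868801-92869400 had 31.2, 27.7 and 29.6 scaled reads against 6.76 and 15.0 (log2 1.45 ± 0.32, adjusted p = 0.30). The Cavin2 site had 354, 256 and 243 scaled reads against 142 and 128 (log2 1.05 ± 0.25, adjusted p = 0.31), and that of Gata1 106, 109 and 72.8 against 59.7 and 46.9 (log2 0.83 ± 0.27, adjusted p = 0.65). At these 3 sites the groups did not overlap either, with the Daxx-KO values above. Of the 9 sites of megakaryocyte and erythroid genes, 8 were higher, and of the 5 of stem cell genes, 3, beside 76.7% of all sites at GMP-closed peaks. Fbxo28 and Arglu1 had the next largest differences upward, at 1.69 and 1.66, although the Arglu1 site shared only 12 of its 650 bp with the GMP-closed peak. Gpat3, Tcte2 and Syt17 had the largest downward, at -1.44, -1.31 and -1.29.

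In KLS cells, 423 of 17311 sites overlapped 417 GMP-closed peaks (6.64%). They were mixed, with 181 (42.8%) higher in Daxx-KO and 242 lower and a median of -0.79, whereas 19.1% of all sites and 53.5% of those at kept peaks were higher. With limma, 0 passed the adjusted threshold (background 0%), and at an unadjusted p under 0.05 there were 162 higher and 232 lower, with backgrounds of 16.7% and 80% of all sites. The median depends on how a site is matched. When the overlap had to reach 0.5 of the shorter interval, it was 0.72. Slc15a2, which encodes a peptide transporter, had 50.1, 95.4 and 50.8 scaled reads in the Daxx-KO libraries and 18.2 and 18.3 in the Daxx-WT ones (log2 1.72 ± 0.36, adjusted p = 0.28). At Arhgap10 the values were 84.6, 154 and 81.8 against 27.4 and 34.4 (log2 1.70 ± 0.36, adjusted p = 0.28). The groups did not overlap at either site, which held for 99.6% of all sites of this comparison. Lrba had 14.5, 7.0 and 1.88 against 29.2 and 32.1 (log2 -2.16 ± 0.61, adjusted p = 0.30), but the site shared only 49 of its 900 bp with the GMP-closed peak. Usp24 differed by 1.70, Slc16a9 by -1.91 and Ank2 by -1.86, at sites that shared 134, 3 and 154 of 600 bp with the peak. These 4 sites lie mostly outside the peaks and did not meet the stricter overlap. Of 12 sites of stem cell genes, 11 were lower, and of 8 of megakaryocyte and erythroid genes, 8, beside 80.9% of all sites and 57.2% of those at GMP-closed peaks. With the stricter overlap, 7 sites of stem cell genes were left, 6 of them lower, and 4 of megakaryocyte and erythroid genes, all lower. Over all sites at GMP-closed peaks the median was then 0.72.

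In the DKO, sites at GMP-closed peaks were mostly lower than in Daxx-WT KLS cells. This comparison shares its 2 Daxx-WT libraries with the one above. Sites overlapped 1431 GMP-closed peaks (22.8%), and 1304 of the 1442 sites (90.4%) were lower and 138 higher, with a median of -1.04. Of all 50928 sites, 27.9% were lower, and of those at kept and LT-HSC-alone peaks 83.3% and 83.9%. By limma, 775 sites at GMP-closed peaks (53.7%) were called lower at an adjusted p under 0.05 and 95 higher (6.59%), with backgrounds of 14.9% lower and 67.3% higher. At kept peaks 45.3% were called lower and at LT-HSC-alone peaks 58.6%. The calls depend on both DKO libraries, since 0 were made in either direction without either of them, and without Daxx-WT replicate 1 there were 260 lower and 57 higher. Without Daxx-WT replicate 2, 59 were higher. With libraries scaled to their mean reads per window, which moved the median of all sites by -0.67, 1300 sites at GMP-closed peaks were called lower and 1 higher, and over all sites 13848 were called lower and 3324 higher, in place of 7603 and 34252. The standard error was 0.36 at every site, as limma estimated 1 common spread for all sites.

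All 27 DKO sites of stem cell genes were lower, 18 of them past the threshold, beside 90.4% and 53.7% of all sites at GMP-closed peaks. At Prdm16, 6 sites matched 6 of its 9 GMP-closed peaks, and 4 of the 6 passed. That at chr4:154530601-154532200, which covers the peak 23 bp from a GMP peak, had 72.1 and 56.2 scaled reads in DKO against 213 and 191 in Daxx-WT (log2 -1.65, adjusted p = 0.00020). The next, chr4:154518601-154520400, had 71.1 and 76.8 against 209 and 205 (log2 -1.47, adjusted p = 0.0010). The site at the printed Prdm16 sequence did not pass, with 96.5 and 75.9 against 196 and 125 (log2 -0.86, adjusted p = 0.15). At the printed Kit sequence the site had 76.4 and 68.4 against 192 and 134 (log2 -1.14, adjusted p = 0.019), and at that of Bcl11a 92.3 and 77.8 against 246 and 121 (log2 -1.02, adjusted p = 0.0499). In all of these the DKO values were below both Daxx-WT values. The groups did not overlap at 99.96% of all sites of this comparison, so this does not set these genes apart.

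All 19 DKO sites of megakaryocyte and erythroid genes were lower and 11 passed, among them Cavin2 with 33.9 and 45.9 scaled reads against 120 and 81.2 (log2 -1.30, adjusted p = 0.0047). Of the 7 lymphoid sites, all lower, 4 passed. These counts lie near the shares over all sites at GMP-closed peaks. Outside these lists, the 5 sites at 4 Rgs6 peaks were lower and passed, with log2 differences of -1.03 to -1.37. The 4 granulocyte and monocyte sites were divided. S100a8, a calprotectin subunit of neutrophils, was higher with 50.9 and 66.5 against 32.0 and 23.0 (log2 1.07, adjusted p = 0.032). Both Klf4 sites were lower, at peaks more than 500 kb from Klf4. The remaining site, at Csf2rb, was higher but did not pass (log2 0.86, adjusted p = 0.16). It shared only 58 of its 950 bp with the GMP-closed peak. S100a8 was no longer called, at 0.39, with the scaling to mean reads per window. The largest differences upward were at Tgfb3 (1.94), Snx29 (1.91) and Arhgap10 (1.90), where the site had 220 and 200 scaled reads in DKO against 50.6 and 60.3 in Daxx-WT (adjusted p = 1.29e-05). The sites at Tgfb3 and Snx29 shared 96 of 850 and 130 of 650 bp with the GMP-closed peak and did not meet the stricter overlap. With the other scaling, Arhgap10 (adjusted p = 0.053) and Tgfb3 (adjusted p = 0.075) no longer passed. The largest downward were near Pot1a (-2.00), Prss39 (-2.00) and Dppa3 (-1.95), where the site had 28.6 and 37.5 against 130 and 128 (adjusted p = 7.48e-06).

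**Figure D5:**
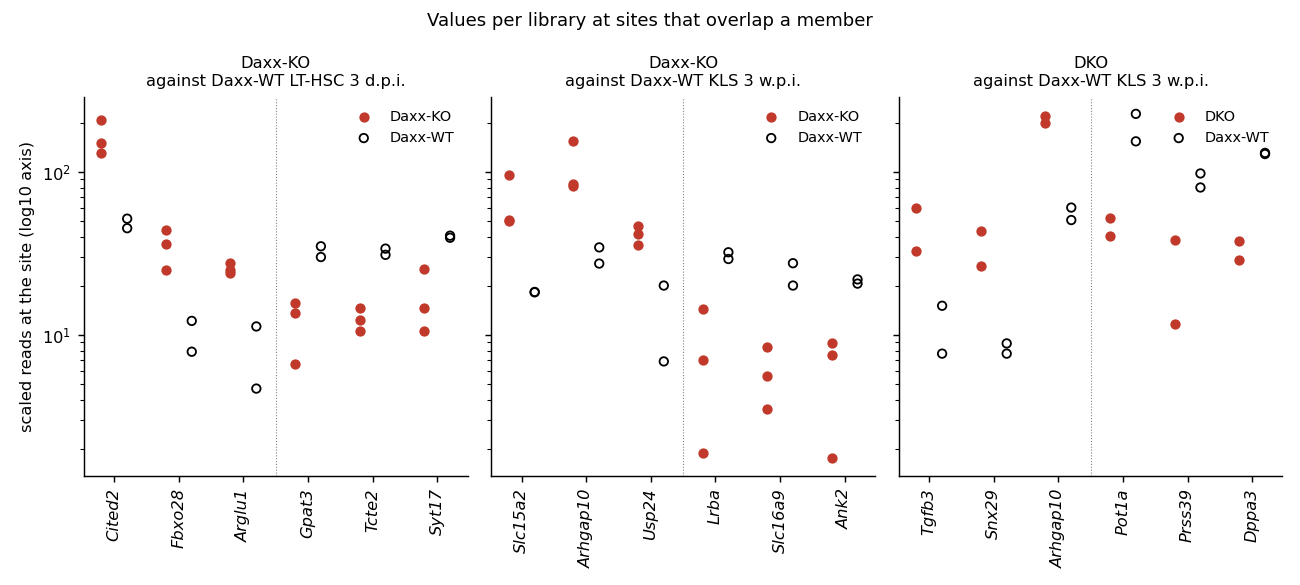
Scaled reads per library (log10 axis) at the 6 named sites of each comparison that overlap a GMP-closed peak by at least 1 bp, filled for the knockout and open for Daxx-WT. A dotted line separates the 3 sites with the largest differences upward from the 3 downward. The groups do not overlap at these sites, for example 28.6 and 37.5 against 130 and 128 near Dppa3, and sites were chosen by these values. Non-overlap held for 99.5 to 99.96% of all sites of a comparison.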

How the data were processed

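Libraries were mapped by the authors to mm10 (GRCm38), and the labels name CASAVA 1.8.4, cutadapt 1.13, STAR 2.5.3 and bedtools. The caller and threshold of the 6 lists without a time label are not given in the sources used here. The 5 timed lists are conservative peaks of an irreproducible discovery rate filter and hold the authors' fold enrichment ratio per peak over background, from pooled libraries. The site tables hold the authors' reads per library divided by a constant, over 600 bp windows in 50 bp steps. These deposited scaled reads are not whole counts. Columns with the authors' own comparisons (fold changes and p-values) were not used.

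Peaks, lists of genes and named genes were chosen with earlier results of these data known. Transcript starts came from GENCODE M21 (GRCm38) and sequence from the RefSeq copy of GRCm38, with Python 3.11.15, pandas 2.3.3 and pysam 0.24.0. Lists were joined by 1 bp of overlap. From each of 5 gene lists the 4 genes with most GMP-closed peaks were named, then the 12 with most and the 8 with the largest share among genes with at least 4 distal peaks, then 3 sites per direction and comparison by size of difference among those past the adjusted threshold (the unadjusted one where none passed). One gene that met this rule is not reported here. Other genes were named after their values were seen. Sites were fitted in limma 3.58.1 (R 4.3.3) on log2(scaled reads + 1), with Benjamini-Hochberg adjustment over 407030 to 446463 windows, and the fit was tested on simulated data. Mean reads per window were 4.21 to 16 per library. The study gives the libraries of a group as biological replicates, and p-values rest on the spread between them as limma estimated it over the listed sites. In the DKO comparison this was 1 common spread, so a p-value there does not reflect the spread of the site's own libraries. The replicate numbers are not known to pair libraries. Same-numbered KLS libraries correlated at -0.0031 to 0.052 in their deviations from the group mean. With 2 Daxx-WT libraries the correlations with each are equal and opposite, so these values do not settle whether libraries are paired. Alternatives were other distance limits, overlaps, list lengths, pseudocounts and scalings, and leaving out each library.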

Additional observations from a re-analysis of the deposited data

How the results depend on the processing

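Of the values of the main comparisons under all alternatives, 159 kept their direction and stayed within 1.5 times or within the spread, 31 moved and 1 reversed. The number of GMP-closed peaks and the presence shares moved little with the overlap, the limit of 500 bp, protein-coding starts or a margin around GMP peaks, and with a limit of 5000 bp the shares were 50.3% in Daxx-KO CMPs and 4.76% in DKO KLS cells. Shortening the 5 timed lists to 1 length gave 16.3 and 18.9% (Daxx-WT and Daxx-KO LT-HSCs at 3 d.p.i.) and 17.3 and 18.7% (Daxx-WT and Daxx-KO KLS cells). The upper 50% of each list gave 11.3, 18.9, 10.5 and 19.1% in the same order and 0.478% in DKO. Scaling to mean reads per window gave medians of 1.10 (3 d.p.i.), -0.30 (KLS, Daxx-KO) and -1.72 (DKO), with 1300 DKO sites called lower and 1 higher. The median of all sites moved by 0.33, 0.47 and -0.67. Adjustment over the listed sites only, which are far fewer than the windows, called 360 sites higher and 114 lower (3 d.p.i.), 159 and 231 (KLS, Daxx-KO), and 1292 lower (DKO). The stricter overlap of sites turned the Daxx-KO KLS median to 0.72 and left 43 DKO sites called higher; the cause was not tested. The replicate number as a block called 3 sites higher and 8 lower in Daxx-KO KLS cells. As the numbers are not known to pair libraries, no effect is read from these calls. The columns at 3 d.p.i. carry no numbers. Leaving out 1 library each gave 0 to 59 DKO sites called higher and 0 to 687 lower, and 0 calls in the other comparisons. With 1 DKO library left, its spread is assumed to be that of the other group. A count test on recovered whole reads was not run, because the values are scaled and no whole reads were recovered. In each single-knockout comparison 1 library was shallow, with 4.21 and 4.54 reads per window, and 0 sites were called with or without it.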
